A study of Homo sapiens with 6 samples.

Results

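The genes described here encode core proteins of the RAS, RAF, MEK and ERK cascade: HRAS and NRAS of the RAS tier, ARAF and BRAF of the RAF tier, MAP2K1 and MAP2K2 (MEK1 and MEK2) of the MEK tier, and MAPK3 (ERK1) of the ERK tier. They were picked by gene symbol for their place in the cascade, with earlier results of these data known, and make up 7 of the 16305 genes with a value in the deposited files. Other members of these families are not analysed here. RNA-seq was performed on Huh7-R cells, labelled Huh7SR, a sorafenib-resistant pool derived from the human hepatocellular carcinoma line Huh7. The study used them to compare expression after fostamatinib, an inhibitor of spleen tyrosine kinase, with expression after the vehicle DMSO. It did not detect the protein of that kinase in Huh7 cells. By immunoblot, at a higher dose and an earlier time, it reported less ERK phosphorylation after fostamatinib. A group of 3 samples received fostamatinib at 2 µM for 24 h, and 3 control samples received DMSO for 24 h, for which the labels also write 2 µM. All 6 samples share the history of the pool, which was grown in sorafenib and, by the study's methods, taken off it some days before each experiment. The pool is a single cell line, and parental Huh7 cells are not analysed here. Whether the 3 samples of a group came from separate cultures is not stated in the labels, so the spread between these samples may be technical. The limma p-values, standard errors and intervals below rest on that spread together with a variance trend fitted over all genes. The exact permutation p-values rest on the values of these samples alone.

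In this cascade RAS proteins are small GTPases that switch on when an exchange factor loads them with GTP. GTP-bound RAS recruits RAF kinases to the membrane, RAF phosphorylates and activates MEK, and MEK in turn phosphorylates ERK, which acts on cytoplasmic kinases and on transcription factors. The cascade carries growth signals from receptor tyrosine kinases, it is often active in hepatocellular carcinoma, and RAF kinases are among the targets of sorafenib. Its proteins are regulated mostly by GTP loading and phosphorylation, which RNA-seq does not measure.

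The 6 samples held 13303451 to 15272737 reads on the genes kept by the authors' filter. Values are given as log2 CPM, the log2 of reads scaled to a common library size, and a log2 difference of 1 is a 2-fold change. The share of reads on mitochondrial (MT-) genes, one sign of RNA quality, was 6.15 to 6.67% with DMSO and 8.16 to 8.40% with fostamatinib. All 8 hepatocyte-lineage markers were listed, with a summed level of 4402 to 4734 CPM after DMSO and 5789 to 6132 CPM after fostamatinib. Of the markers of other cell types, 3 of 4 for fibroblasts (COL1A1, COL1A2 and PDGFRB) summed to 148 to 153 CPM after DMSO and 191 to 198 CPM after fostamatinib, and 1 of 4 for endothelial cells (PECAM1) stood at 6.13 to 6.96 and 8.76 to 9.93 CPM. Of the 4 leukocyte markers only LYZ was listed, at 9.34 to 10.8 CPM after DMSO and 9.34 to 11.2 CPM after fostamatinib. The part of the mitochondrial share and of these markers in the results was not tested. Leaving the MT- genes out of the library sizes changed only the scaling. In that run 6 of the 7 cascade genes were still called, HRAS with an adjusted p of 0.0401 by limma.

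After fostamatinib, transcripts of the cascade moved in both directions and by modest amounts. MAPK3 rose 1.52-fold, BRAF 1.36-fold and ARAF 1.23-fold, whereas MAP2K1 fell by 18.7%, HRAS by 15.8% and NRAS by 15.0%. MAP2K2 was not called, with a difference of 1.76%. Thus 6 of the 7 genes passed an adjusted p of 0.05 (limma, Benjamini-Hochberg over all genes), 3 higher and 3 lower. Of all genes tested 47.8% passed, 23.3% higher and 24.5% lower. At an unadjusted p under 0.05 the counts were 6 of 7 and 53.3% of all genes. The fostamatinib and DMSO samples did not overlap for 5 of the 7 genes, beside 54.1% of all genes. The 95% intervals of all 7 lay within a 2-fold change, as did those of 74.4% of all genes, and none of the 7 was called with a change beyond 2-fold, beside 7.13% of all genes. The median absolute log2 fold change was 0.30 over the 7 genes and 0.27 over all genes.

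**Figure D1:**
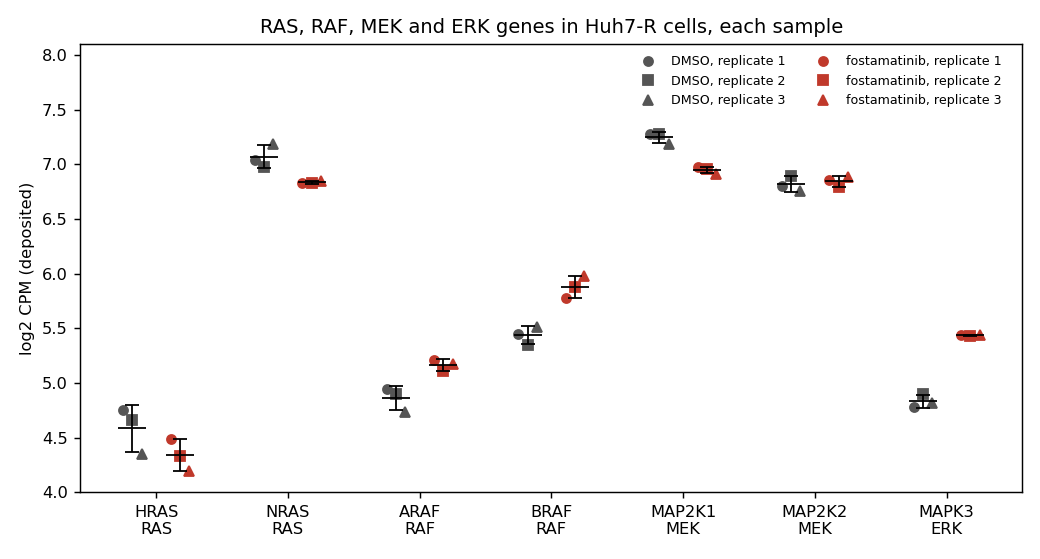
Deposited log2 CPM (vertical axis) of the 7 cascade genes (horizontal axis, with their tier) in each of the 3 DMSO samples (grey) and 3 fostamatinib samples (red), where the marker shape gives the replicate number, the long line the mean and the bars the SD. The groups overlap for HRAS and MAP2K2 and are apart for the other genes, most widely for MAPK3.

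At the RAS tier, HRAS and NRAS encode closely related GTPases that pass the signal from the membrane to RAF. HRAS (ENSG00000174775, GRCh37 chr11:532242-537321, minus strand) stood at 4.76, 4.66 and 4.35 log2 CPM with DMSO and at 4.49, 4.33 and 4.20 with fostamatinib, from 243 to 385 reads a sample. The groups overlapped, since DMSO replicate 3 lay below fostamatinib replicate 1. The mean went from 4.59 ± 0.214 to 4.34 ± 0.146 (SD, n = 3 each), a log2 fold change of -0.25 ± 0.092 (SE) with an adjusted p of 0.0253 by limma. This was the largest adjusted p of the 6 genes called, and the call was lost without DMSO replicate 1 (log2 fold change -0.16, adjusted p = 0.203), DMSO replicate 2 (-0.21, 0.0968), fostamatinib replicate 2 (-0.24, 0.0702) or fostamatinib replicate 3 (-0.18, 0.173), and without a mean-variance trend in the model (adjusted p = 0.205).

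NRAS (ENSG00000213281, GRCh37 chr1:115247090-115259392, minus strand) had 1525 to 2161 reads a sample. It stood at 7.04, 6.98 and 7.18 log2 CPM with DMSO and at 6.83, 6.83 and 6.85 with fostamatinib. All fostamatinib samples lay below all DMSO samples, and they were closer to each other than the DMSO samples were. With 3 samples, a small spread such as this is itself uncertain. The mean fell from 7.07 ± 0.105 to 6.83 ± 0.011 (SD, n = 3 each), a log2 fold change of -0.23 ± 0.048 (SE) with an adjusted p of 0.000116 by limma. The log2 ratio of HRAS to NRAS, which does not depend on the scaling of a sample, was -2.48 ± 0.309 after DMSO and -2.49 ± 0.156 after fostamatinib (SD, n = 3 each). The difference was -0.01 ± 0.20 (SE; two-sided exact permutation p = 0.90, where 3 samples against 3 cannot give less than 0.10), and its sign turned in some runs that left out 1 sample, to 0.085 without DMSO replicate 1, 0.067 without DMSO replicate 2 and 0.063 without fostamatinib replicate 3.

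At the RAF tier, ARAF and BRAF encode serine/threonine kinases that are recruited by RAS and phosphorylate MEK. ARAF (ENSG00000078061, GRCh37 chrX:47420604-47431307, plus strand) stood at 4.95, 4.90 and 4.74 log2 CPM with DMSO and at 5.21, 5.11 and 5.17 with fostamatinib, from 396 to 510 reads. All fostamatinib samples lay above all DMSO samples. The mean rose from 4.86 ± 0.111 to 5.17 ± 0.054 (SD, n = 3 each), a log2 fold change of 0.30 ± 0.070 (SE) with an adjusted p of 0.000463 by limma.

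BRAF (ENSG00000157764, GRCh37 chr7:140419127-140624729, minus strand) stood at 5.45, 5.35 and 5.51 log2 CPM with DMSO and at 5.78, 5.88 and 5.97 with fostamatinib, from 602 to 837 reads. As for ARAF, the fostamatinib samples were all higher. The mean rose from 5.44 ± 0.084 to 5.88 ± 0.099 (SD, n = 3 each), a log2 fold change of 0.44 ± 0.062 (SE) with an adjusted p of 2.42e-07 by limma. The log2 ratio of ARAF to BRAF was -0.57 ± 0.178 after DMSO and -0.71 ± 0.129 after fostamatinib (SD, n = 3 each). These ratios overlapped between the groups, with a difference of -0.14 ± 0.13 (SE) and a two-sided exact permutation p of 0.30, where 3 samples against 3 cannot give less than 0.10. Whether BRAF and ARAF rose by different amounts was therefore not settled.

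At the MEK tier, MAP2K1 and MAP2K2 encode the dual-specificity kinases MEK1 and MEK2, which phosphorylate ERK on a threonine and a tyrosine. MAP2K1 (ENSG00000169032, GRCh37 chr15:66679175-66783994, plus strand) stood at 7.28, 7.28 and 7.19 log2 CPM with DMSO and at 6.97, 6.96 and 6.92 with fostamatinib, from 1599 to 2369 reads. All fostamatinib samples lay below all DMSO samples. The mean fell from 7.25 ± 0.052 to 6.95 ± 0.030 (SD, n = 3 each), a log2 fold change of -0.30 ± 0.044 (SE) with an adjusted p of 6.02e-07 by limma, and in size it was the largest fall of the 7 genes. MAP2K2 (ENSG00000126934, GRCh37 chr19:4090319-4124119, minus strand) stood at 6.80, 6.90 and 6.75 log2 CPM with DMSO and at 6.86, 6.79 and 6.88 with fostamatinib, from 1539 to 1816 reads. Here the groups overlapped throughout. The means were 6.82 ± 0.071 and 6.84 ± 0.049 (SD, n = 3 each), a log2 difference of 0.03 ± 0.048 (SE) with a 95% interval of -0.071 to 0.12 and an adjusted p of 0.693 by limma. Of all genes, 94.7% had a larger absolute change.

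The balance of the MEK transcripts was shifted towards MAP2K2 in every fostamatinib sample. The log2 ratio of MAP2K1 to MAP2K2 was 0.47, 0.38 and 0.43 with DMSO, against 0.11, 0.17 and 0.03 with fostamatinib, and the groups did not overlap. The mean ratio went from 0.43 ± 0.045 to 0.11 ± 0.070 (SD, n = 3 each), a difference of -0.32 ± 0.048 (SE). The two-sided exact permutation p was 0.10, the smallest that 3 samples against 3 can give, and 0.30 after adjustment over the 3 pairs of genes compared, so this design cannot pass 0.05 by that test.

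**Figure D2:**
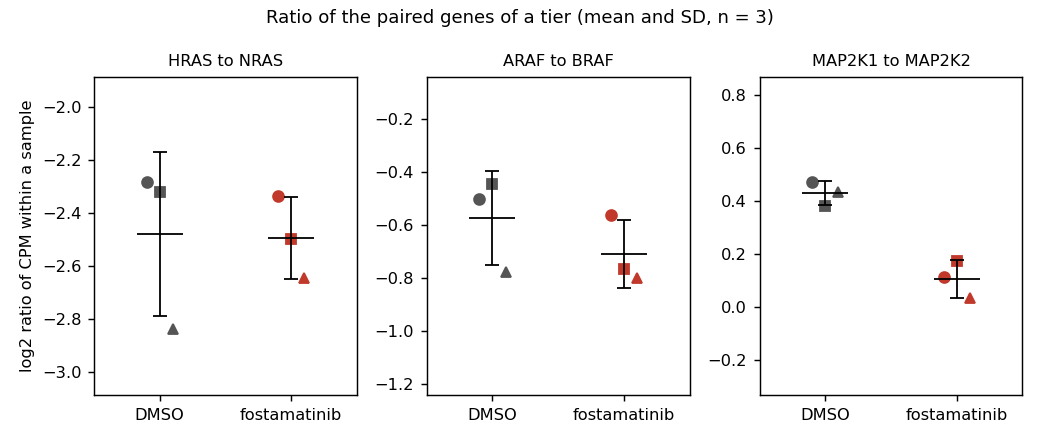
Log2 ratio of CPM between the 2 genes of a tier (vertical axis, 1 panel a pair, each panel with an axis of the same span) in the 3 DMSO and 3 fostamatinib samples (horizontal axis), with the marker shape giving the replicate number, the line the mean and the bars the SD. Only the ratio of MAP2K1 to MAP2K2 is apart between the groups, with a mean of 0.43 after DMSO and 0.11 after fostamatinib.

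At the ERK tier, MAPK3 encodes ERK1, the kinase at the end of the cascade. MAPK3 (ENSG00000102882, GRCh37 chr16:30125426-30134827, minus strand) stood at 4.78, 4.90 and 4.82 log2 CPM with DMSO and at 5.44, 5.43 and 5.44 with fostamatinib, from 378 to 614 reads. The fostamatinib samples were all higher and nearly equal to each other, although a spread taken from 3 samples is itself uncertain. The mean rose from 4.83 ± 0.062 to 5.44 ± 0.0053 (SD, n = 3 each), a log2 fold change of 0.60 ± 0.065 (SE) with a 95% interval of 0.47 to 0.74 and an adjusted p of 8.69e-10 by limma. This was the largest change of the 7 genes, and 20.9% of all genes had a larger absolute change. For a single gene, an exact permutation test of 3 samples against 3 gave its smallest p of 0.10 for MAPK3, BRAF, ARAF, MAP2K1 and NRAS, 0.20 for HRAS and 0.80 for MAP2K2.

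**Figure D3:**
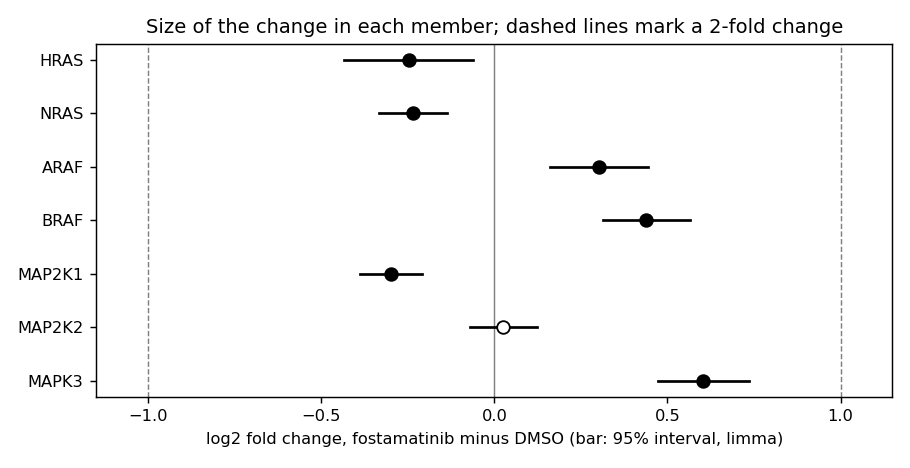
Log2 fold change, fostamatinib over DMSO (horizontal axis), of each cascade gene (vertical axis), with its 95% interval from limma as a bar. Filled points are genes called, the open point the gene not called, and dashed lines a 2-fold change. The RAF and ERK genes lie above 0, from 0.30 for ARAF to 0.60 for MAPK3, and HRAS, NRAS and MAP2K1 lie below it.

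To compare levels between the genes, CPM was divided by the length of each gene's canonical transcript, giving CPM per kb. On that scale the order after DMSO was MAP2K2 (65.4 ± 3.26), MAP2K1 (59.7 ± 2.11), NRAS (31.1 ± 2.30), HRAS (22.6 ± 3.23), MAPK3 (15.9 ± 0.685), ARAF (12.3 ± 0.924) and BRAF (6.72 ± 0.389; SD, n = 3 each). The MEK transcripts thus stood highest and the RAF transcripts lowest, and the samples of no neighbouring pair in this order overlapped. After fostamatinib the levels were 66.5 ± 2.23 for MAP2K2, 48.5 ± 0.995 for MAP2K1, 26.4 ± 0.207 for NRAS, 24.2 ± 0.0887 for MAPK3, 19.0 ± 1.94 for HRAS, 15.1 ± 0.558 for ARAF and 9.11 ± 0.623 for BRAF (SD, n = 3 each). MAPK3 had moved above HRAS, and again no neighbours overlapped. The order depends on the transcript length that is assumed: with the length of all annotated exons, NRAS (31.1 CPM per kb) stood first after DMSO, ahead of MAP2K1 (23.5) and MAP2K2 (14.5), and HRAS, ARAF and MAPK3 (9.96, 8.55 and 7.77) overlapped as neighbours. BRAF was the lowest under either length.

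Reads of these genes could be shared with other genes to different extents. No 50-base window of the canonical transcripts of HRAS, NRAS, ARAF and MAPK3 was found exactly in a transcript of another gene, on either strand. Such windows made up 9.11% of BRAF, 11.0% of MAP2K1 and 15.8% of MAP2K2, so the values of these genes are less certain. The BRAF windows were spread over 775 other genes, among them CHST12 with 3.54% and the pseudogene BRAFP1 with 2.98%. Of the MAP2K1 windows, 7.45% were shared with the lncRNA ENSG00000261351 and 4.12% with the pseudogene MAP2K1P1, and all those of MAP2K2 were shared with ENSG00000230626. Neither pseudogene was listed under its symbol among the genes tested. On the opposite strand, exons of NDUFB2, a subunit of mitochondrial complex I, overlapped 5.29% of the BRAF exon bases, and its log2 difference was -0.0053 (adjusted p = 0.952). The lncRNA ENSG00000261351 overlapped 20.5% of the MAP2K1 exon bases and had a mean of 15.3 reads after DMSO and 22.3 after fostamatinib (adjusted p = 0.132). SNAPC5, a subunit of the snRNA-activating complex, overlapped 3.34% of the MAP2K1 exon bases and had a mean of 324 reads after DMSO and 270 after fostamatinib (log2 difference -0.18, adjusted p = 0.0766). The library kit keeps strand, but the strand setting of the counting is not given in the sources used here, so reads of these opposite-strand genes may not have been told apart.

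The 250 bases before the RefSeq transcription start were read for each of the 7 genes and found once each in GRCh37. They are shown for NRAS, which fell, ARAF, which rose, and MAP2K2, which was not called, because in these 3 the window lies wholly outside the annotated gene (chr1:115259393-115259642, minus strand; chrX:47420354-47420603, plus strand; chr19:4124120-4124369, minus strand). They are written 5′ to 3′ on the strand of the gene, with matches on either strand to a GC box, a CCAAT box or an E-box in capitals.
NRAS: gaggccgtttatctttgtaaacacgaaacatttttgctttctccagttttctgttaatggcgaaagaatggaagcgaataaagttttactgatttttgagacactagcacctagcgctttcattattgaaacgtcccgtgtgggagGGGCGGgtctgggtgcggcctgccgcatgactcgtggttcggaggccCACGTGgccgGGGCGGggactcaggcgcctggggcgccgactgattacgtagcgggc
ARAF: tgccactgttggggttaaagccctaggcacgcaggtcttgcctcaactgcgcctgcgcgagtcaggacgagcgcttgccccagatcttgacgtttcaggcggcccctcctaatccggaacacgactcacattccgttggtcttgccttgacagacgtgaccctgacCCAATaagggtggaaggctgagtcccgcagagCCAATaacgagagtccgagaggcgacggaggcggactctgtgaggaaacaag
MAP2K2: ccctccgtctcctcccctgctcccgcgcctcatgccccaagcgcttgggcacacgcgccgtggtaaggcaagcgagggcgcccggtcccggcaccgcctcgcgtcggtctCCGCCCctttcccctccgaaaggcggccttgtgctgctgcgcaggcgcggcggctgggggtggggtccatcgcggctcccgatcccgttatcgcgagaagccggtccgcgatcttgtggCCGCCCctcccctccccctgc
The GC box, GGGCGG, was present in 5 of the 7 windows (HRAS, NRAS, MAP2K1, MAP2K2 and MAPK3, with 6 in MAPK3), beside 42.6% of 35116 RefSeq promoter windows of the same length. It was present in all 3 genes that fell, in the gene not called and in 1 of the 3 that rose. A link between any of these motifs and the direction of change was not tested. The letters CCAAT were present in HRAS, ARAF, BRAF and MAP2K1, beside 32% of all windows. The E-box, CACGTG, was present in NRAS and MAPK3, beside 6.34% of all windows. An ETS motif, CCGGAAGT, was found in 3.42% of all windows. An AP-1 motif, TGACTCA, was found in 4.2%. A cyclic AMP response element, TGACGTCA, was found in 1.65%. None of these was found in the 7 windows, which says only that these letters are not there. The GC content was 54.4% in NRAS, 59.2% in ARAF, 64.8% in BRAF, 71.2% in MAP2K1, 74% in MAP2K2, 77.2% in HRAS and 80.4% in MAPK3, with a median of 58% over all windows.

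The regulators that load and unload RAS are given next, as lists set by role. Each count below is to be read beside all genes tested, of which 47.8% were called, 23.3% higher and 24.5% lower, and the lists were not tested as sets. Of the exchange factors, which switch RAS on, 5 of 8 were tested and 3 were called, 2 higher and 1 lower. SOS1, an exchange factor that acts downstream of receptor tyrosine kinases, rose from 2549, 2702 and 3043 reads to 4390, 4900 and 4497 (log2 fold change 0.82 ± 0.045, adjusted p = 2.12e-17). Its relative SOS2 was not called (0.05 ± 0.059, adjusted p = 0.545 by limma). RASGRP3 rose (0.66 ± 0.16, adjusted p = 0.000677) and RASGRP1 fell, from 50 to 55 reads down to 8 to 13 (log2 fold change -2.34 ± 0.27, adjusted p = 4.00e-09); both encode exchange factors that respond to diacylglycerol. Of the GTPase-activating proteins, which switch RAS off, 7 of 10 were tested and 6 called, 3 in each direction. RASAL2 (-0.54 ± 0.064, adjusted p = 9.33e-09) and RASA2 (-0.33 ± 0.095, adjusted p = 0.00372) fell. RASA4 was called higher (1.65 ± 0.23, adjusted p = 1.57e-07), but from only 15 to 37 reads after DMSO and 66 to 78 after fostamatinib, and its reads may be split with the near-identical RASA4B, so its value is uncertain.

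Around RAS itself, most small GTPases of the family that were called fell. Of 9 RAS-related GTPases, all tested, 5 were lower and 2 higher, with a median log2 fold change of -0.36 beside 0.0015 over all genes. RRAS2, a close relative of RAS, fell from 1143, 1211 and 1302 reads to 713, 754 and 686 (log2 fold change -0.67 ± 0.053, adjusted p = 6.00e-13), and MRAS, which forms part of a phosphatase complex that acts on RAF, fell by a like amount (-0.68 ± 0.11, adjusted p = 7.00e-06). RAP1A (0.40 ± 0.053, adjusted p = 7.12e-08) and RRAS (0.22 ± 0.061, adjusted p = 0.00264) rose. The 8 genes that attach or remove the lipids of RAS, process its prenylated end or carry it between membranes were all tested. Of these, 3 were called, and 1 without DMSO replicate 1. ICMT, which methylates the prenylated end of RAS, fell (-0.42 ± 0.042, adjusted p = 2.72e-10), as did FNTA, a farnesyltransferase subunit (-0.14 ± 0.051, adjusted p = 0.0201), and PDE6D, a carrier of prenylated proteins, rose (0.24 ± 0.084, adjusted p = 0.0196). Of the adaptors that link receptors to RAS, 13 of 16 were tested and 6 called, 3 in each direction, a share near that of all genes (47.8%), and 3 were called without a mean-variance trend in the model. PTPN11, the phosphatase SHP2, fell from 6531, 7153 and 7549 reads to 4981, 5168 and 4901 (log2 fold change -0.41 ± 0.037, adjusted p = 2.01e-11), SHC1 fell (-0.28 ± 0.037, adjusted p = 5.63e-08), and IRS2 (0.28 ± 0.054, adjusted p = 4.70e-05) and FRS2 (0.21 ± 0.068, adjusted p = 0.00846) rose.

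Genes whose products hold the kinases together or restrain them were called in both directions. Of the scaffolds and modulators, 14 of 15 were tested and 11 called, 5 higher and 6 lower, and 7 were called without a mean-variance trend in the model. KSR1, a scaffold that brings RAF, MEK and ERK together, rose from 519, 552 and 592 reads to 1250, 1324 and 1214 (log2 fold change 1.28 ± 0.055, adjusted p = 3.51e-20). PEBP1, which binds RAF kinases and keeps them from MEK, rose from 2895, 3362 and 3178 reads to 4588, 4872 and 4376 (0.64 ± 0.038, adjusted p = 2.49e-16). PEA15, which holds ERK in the cytoplasm, fell from 3886, 4223 and 3862 reads to 2312, 2215 and 2033 (-0.78 ± 0.043, adjusted p = 3.64e-17), and CNKSR2 fell too (-0.53 ± 0.12, adjusted p = 0.000295). The 14-3-3 proteins bind phosphorylated RAF and many other proteins, and of their 7 genes, all tested, 6 were lower and none higher, beside 24.5% of all genes lower. SFN had the largest of these falls (-0.54 ± 0.074, adjusted p = 1.72e-07), followed by YWHAG (-0.26 ± 0.036, adjusted p = 2.30e-07), and YWHAZ, with the most reads, was not called (-0.02 ± 0.036, adjusted p = 0.716).

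**Figure D4:**
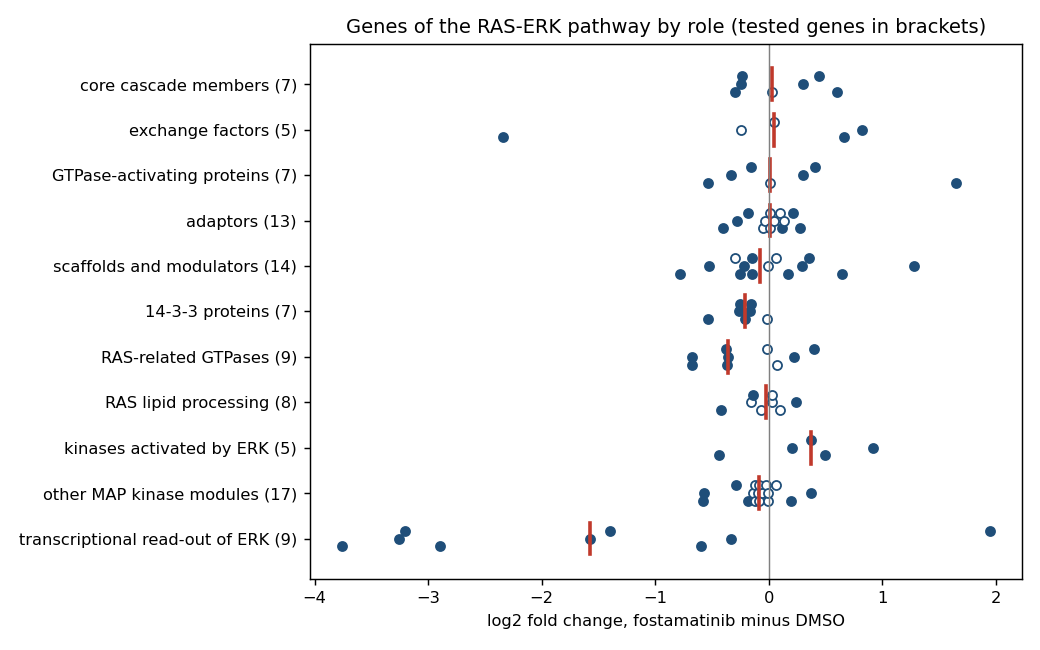
Log2 fold change, fostamatinib over DMSO (horizontal axis), of every tested gene in each list (vertical axis), with 1 point a gene, filled where called and open where not called, and a red line at the median of each list. The cascade genes lie within -0.30 to 0.60, and the genes taken as a read-out of ERK reach from -3.76 to 1.95.

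Below ERK, all 5 tested genes of the 8 listed for kinases that ERK or its relatives activate were called, 4 higher and 1 lower, with a median log2 fold change of 0.37, beside 47.8% of all genes called. RPS6KA3, the ribosomal S6 kinase RSK2, rose from 8170, 8910 and 10406 reads to 15562, 17071 and 15905 (log2 fold change 0.92 ± 0.044, adjusted p = 7.93e-19). MKNK1, a kinase of the translation factor eIF4E, rose (0.50 ± 0.062, adjusted p = 2.10e-08) and RPS6KA4 fell (-0.44 ± 0.075, adjusted p = 7.93e-06). The cascade genes can be set beside genes whose transcription is commonly read as ERK output, a list drawn up with earlier results on these samples known and so no independent evidence of the direction or the size of its changes. Of 10 such genes 9 were tested, 8 were lower and 1 higher, with a median of -1.58. ETV5, an ETS transcription factor, fell from 219 to 223 reads down to 13 to 17 (log2 fold change -3.76 ± 0.17, adjusted p = 1.19e-19), SPRY4, a feedback inhibitor, fell from 190 to 208 reads down to 14 to 32 (-3.26 ± 0.21, adjusted p = 1.47e-15), and DUSP4, a MAP kinase phosphatase, rose (1.95 ± 0.081, adjusted p = 1.44e-20).

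Genes listed for other MAP kinase modules (JNK, p38, ERK5, further MAP kinases and upstream kinases) came to 17 tested of 20 listed. Of these, 6 were called, 2 higher and 4 lower, beside 47.8% of all genes called. MAP3K8, a kinase that can activate MEK without RAF, fell (-0.58 ± 0.060, adjusted p = 3.93e-10), as did MAPK11, the p38 beta kinase (-0.57 ± 0.083, adjusted p = 4.26e-07). MAP3K3 (0.37 ± 0.076, adjusted p = 0.000101) and MAP2K7, an activator of JNK (0.19 ± 0.062, adjusted p = 0.0100), rose. In these bulk samples, a change in the level of a transcript in every cell and a change in the share of cells that hold it cannot be told apart.

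Among the genes whose log2 CPM was most like that of MAPK3 over the 6 samples were FTL, the ferritin light chain (Pearson r = 0.9996), and HOXC10, a homeobox factor (r = 0.9995), with log2 fold changes of 0.52 and 0.73. For MAP2K1 they included ZMYND19 (r = 0.998) and LINC01694 (r = 0.997), with log2 fold changes of -0.54 and -0.60. These correlations are descriptions: the 6 samples fall into 2 treatment groups, and of the 11484 genes compared, 293 reached an r over 0.99 with MAPK3 and 118 with MAP2K1.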

How the data were processed

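RNA-seq reads of 3 fostamatinib and 3 DMSO samples were mapped by the authors to hg19 with HISAT and counted with featureCounts on a GENCODE annotation; a gene stayed if either group had 5 or more reads in 2 of its 3 samples, and counts were normalized with TMM. The deposited values are log2 CPM, for which the authors added 0.5 to each count and divided by the TMM-scaled library size. Whole reads were recovered from them (all within 0.05 of a whole number); they give the depth, 13303451 to 15272737 reads a sample. A ribosomal RNA gene listed 7 times was used once.

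limma 3.58.1 in R 4.3.3 (lmFit, eBayes with trend) was fitted to the log2 CPM of 16305 genes with treatment as the single term. Genes with a Benjamini-Hochberg adjusted p under 0.05 were called. The plan allowed for a count test, but values on a log2 scale were tested with limma. The study's methods name a limit on the expected number of false positives, and its results an adjusted p under 0.05. Ratios within a tier were compared by exact permutation. The scripts were tested on simulated data. Python 3.11.15 was used for tables, with pandas 2.3.3, scipy 1.17.1 and numpy 2.4.6.

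The genes and lists were chosen with earlier results of these data known. All 7 cascade genes are named; from each list, up to 2 called genes that rose most and up to 2 that fell most, where the higher group averaged 50 reads or more; the 3 genes most like MAPK3 and the 3 most like MAP2K1, the members that rose and fell most; and genes that overlap or copy a member. Some genes that meet this rule for lists and likeness are not reported here. SOS2, RASA4B, YWHAZ, RASGRF1, CNKSR1, ETV4, CHST12 and ENSG00000230626 were named after their values were seen. Positions are from GRCh37, the same build as hg19, with a lifted GENCODE annotation in which 98.7% of gene identifiers were found; promoters are from RefSeq, for 7 of 7 genes. Genes not listed after the filter or not used here are given as not tested. Alternatives were limma-voom on recovered reads, no trend, RLE size factors, library size alone, 2 stricter filters, 2 reads added in place of 0.5, the replicate number as a block, leaving out each sample, a limit of 1 expected false positive and, added after seeing the data, library sizes without MT- genes. With 3 samples a group, precision is limited by that number.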

Additional observations from a re-analysis of the deposited data

How the results depend on the processing

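Apart from HRAS and ARAF, the cascade genes kept their direction and side of the threshold in all alternatives run, except that the difference of MAP2K2, never called, ranged from -0.0066 to 0.064 when 1 sample was left out. The size of the adjusted p depended on the trend. Without it, limma gave 0.0395 for NRAS, 0.0249 for ARAF, 0.00873 for BRAF, 0.00724 for MAP2K1 and 0.00092 for MAPK3. HRAS (-0.25) was not called without a trend or at 1 expected false positive, nor when any of 4 samples was left out (-0.37 to -0.16 over all 6), and ARAF (0.30) was not called at 1 expected false positive. The cause was not tested. Cascade genes called numbered 5 without a trend, 4 at 1 expected false positive and 5 to 6 with 1 sample left out, and 6 in the others. Of all genes, 6382 passed without a trend, 4136 at 1 expected false positive (1892 higher and 2244 lower), and 6958 to 7480 with 1 sample left out. Without a trend, 3 adaptors, 7 scaffolds and modulators and 1 gene of RAS lipid processing were called. With 1 sample left out, 1 to 3 genes of RAS lipid processing were called, and list medians ranged from -0.23 to -0.19 for 14-3-3 proteins, -0.067 to -0.0042 for RAS lipid processing, -0.020 to 0.075 for adaptors and 0.033 to 0.21 for exchange factors, whose median was 0.66 with at least 10 reads in every sample. The log2 ratio of HRAS to NRAS ranged from -0.19 to 0.085 with 1 sample left out, with reversed signs of 0.085, 0.067 and 0.063. Scalings moved the median of all genes by at most 0.018. Samples with the same number did not deviate together (correlations of 0.037, -0.021 and 0.037). These correlations cannot settle whether samples with the same number were handled together. A fit with a replicate block called 7977 genes and 6 cascade genes. A run with no filter was not made, since the files are already filtered. Depth limits the list genes with few reads most: RASGRF1, with 2 to 9 reads a sample, had a standard error of 0.55, CNKSR1 of 0.33, ETV4 of 0.30, RASGRP1 of 0.27 and RASA4 of 0.23.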
